A study of Drosophila melanogaster with 9 samples.

Results

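The genes described here are the ionotropic receptors (Ir) and gustatory receptors (Gr) of the fruit fly Drosophila melanogaster, the channel families through which insects detect acids, amines, sugars, bitter compounds, carbon dioxide, temperature and humidity. They were taken from the deposited gene table by symbol alone, as the genes whose FlyBase symbol begins with Ir or Gr followed directly by a digit. This gave 126 of 17490 genes, of which 66 are Ir genes and 60 are Gr genes. By chromosome arm, 21 lie on 2L, 37 on 2R, 24 on 3L, 27 on 3R and 17 on X.

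Polyadenylated RNA was sequenced from whole heads of flies isolated for 7 days, flies isolated for 1 day and flies reared in a group for 7 days, with 3 libraries per condition. All groups had the wild type genotype Canton-S w1118 (iso1CJ), and each library was made from 200 heads collected at ZT0.5-2, shortly after lights on. The labels give neither the sex nor the age of the flies, and they do not say that the 3 samples of a condition came from separate cultures. The p-values therefore measure the spread between these samples, which may be technical. No flies were sampled after 1 day in a group. In the comparison of 1 day with the group, isolation and the days of treatment therefore cannot be told apart.

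Ionotropic receptors are relatives of synaptic glutamate receptors, in which a tuned subunit that binds the odour or tastant is paired with a broadly used co-receptor subunit. The antennal members sit mainly in coeloconic sensilla, where they report acids and amines, and in the arista and sacculus, where they report temperature and humidity. Gustatory receptors work mostly in taste neurons of the proboscis, pharynx and legs, with separate neurons for sugars and for bitter compounds, and a pair of them detects carbon dioxide in the antenna. Intact heads carry antennae, proboscis and pharynx but not legs. How much antennal tissue each sample held was not tested. Some antennal genes given below were uneven between libraries, such as Os-C, with 60 and 77 counts in group replicates 1 and 3. In every other library Os-C had at most 2 counts.

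Library totals ranged from 39698143 to 53514747 counts. The 3 libraries of 1 day had the lowest totals, 39698143 to 41404688, against 47381611 or more in the others. A level of 3 counts, the most that a count of 0 allows, was worth 0.0561 to 0.0756 CPM (counts scaled to a common library total), for counting error only. Gut and male tract genes marked 5 of the 9 libraries as holding body tissue (isolated for 7 days replicates 1 and 3, isolated for 1 day replicates 1 and 2, and group housed replicate 2). There, marker genes of both tissues summed to between 493 and 1135 CPM, against 10.8 to 15.3 CPM in the other 4. The results below are therefore also given with a model term for body tissue. Isolated for 1 day replicate 1 also stood apart on the female yolk protein genes Yp1, Yp2 and Yp3, which summed to 1201 CPM there and to 39.6 to 94.1 CPM in the other 8 libraries. Eye markers were at 58815 to 75488 CPM in sum in all 9 libraries, as heads should give. Their sum was 67940 to 74056 CPM after 7 days of isolation, 58815 to 68349 CPM after 1 day and 75318 to 75488 CPM in the group.

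Most receptor genes were at the edge of detection in whole heads. Of the 126, 12 had a count of 0 in all 9 libraries and 26 more never exceeded 3 counts in any library, while 67 were above 0 in all 9. Only 13 averaged at least 1 CPM (9 Ir and 4 Gr genes), and the 7 that averaged at least 5 CPM were all Ir genes. After the filter on low counts, 43 receptor genes could be tested (21 Ir and 22 Gr), or 34.1% of them, against 12963 genes or 74.1% of all genes. A gene that passes only through the group where it is high had to differ, so counts over these 43 describe them and not the family.

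Per kilobase of exon, the 7 highest receptor genes stood apart from the rest. Ir76a averaged 11.0 CPM per kilobase, Ir75a 10.2, Ir75b 6.70, Ir62a 4.83, Ir76b 3.53, Ir68a 3.04 and Ir25a 2.95, over all 9 libraries. The next was Gr32a at 1.11 CPM per kilobase, and its highest library (1.31) lay below the lowest of Ir25a (2.60). These means pool the 3 conditions. Ir76a and Ir75a were not separated, with ranges of 9.73 to 12.3 and 6.15 to 12.4, and neither were Ir76b, Ir68a and Ir25a. Below Gr32a came Gr66a (0.923), Gr33a (0.869), Ir51a (0.770), Gr28b (0.577), Ir85a (0.454), Gr61a (0.451) and Gr5a (0.442), in a continuous run with overlapping libraries. Ir51a is annotated as a pseudogene, 1 of 6 among the 126.

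**Figure D1:**
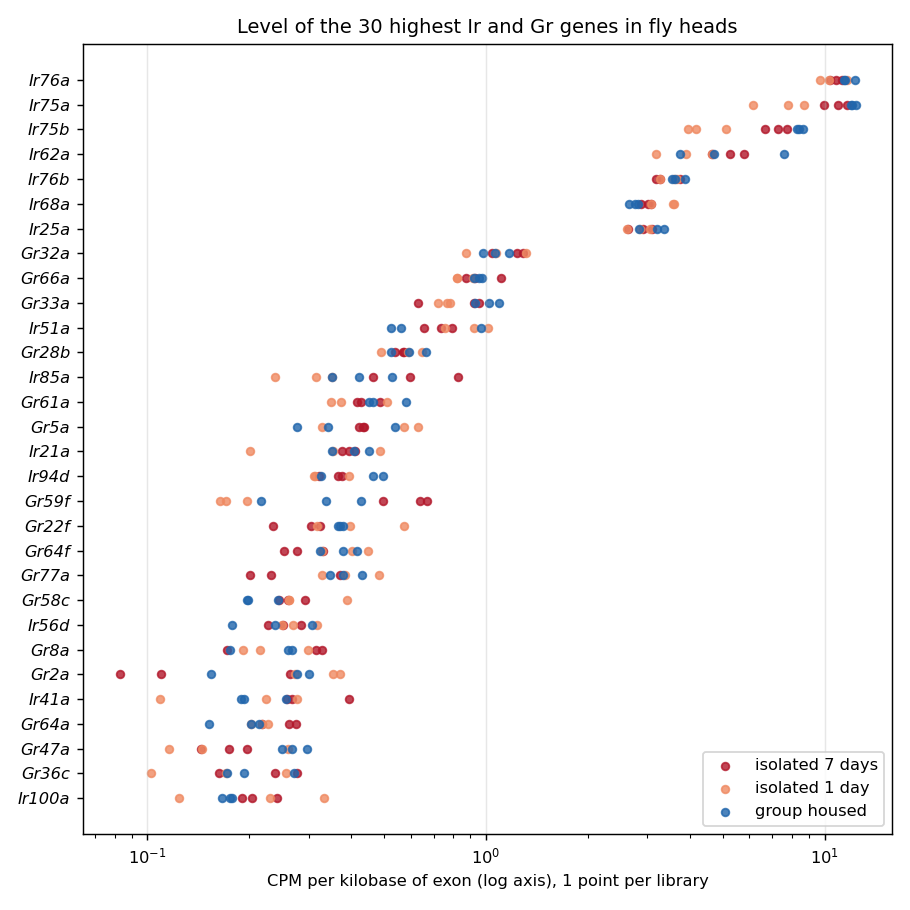
Level of the 30 receptor genes with the highest mean, in CPM per kilobase of exon on a log axis, with 1 point per library coloured by housing. The upper 7 genes, from Ir76a to Ir25a, lie at 2.60 CPM per kilobase or more in every library and all others at 1.31 or less, and the points of Ir75a and Ir75b after 1 day of isolation lie left of those of the group.

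Summed over all 66 genes, Ir transcripts came to 102.0 ± 3.18 CPM after 7 days of isolation and 87.6 ± 3.72 CPM after 1 day, against 109.1 ± 4.35 CPM in the group (SD, n = 3 each). The 7 genes above made up 91.0% of the Ir sum, so the sum mainly follows them. The Gr sum was 16.2 ± 0.782 CPM after 7 days and 16.3 ± 0.639 CPM after 1 day, against 16.6 ± 0.306 CPM in the group. It was spread more evenly, with 56.0% in its 7 highest genes.

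Few receptor genes differed between housing conditions past the threshold, an adjusted p under 0.05 over all 12963 genes tested (edgeR quasi-likelihood test, Benjamini-Hochberg). After 7 days of isolation against the group, 0 of 43 were called, and 1 (Gr59f) had an unadjusted p under 0.05. The background was 0.301% of all genes tested, and DESeq2 and limma-voom also called 0. After 1 day against the group, 2 of 43 were called, Ir75a and Ir75b, both lower, against a background of 3.96% called in either direction and 2.71% called lower. Between 7 days and 1 day of isolation 2 of 43 were called, Ir75b and Gr59f, both higher at 7 days, against 4.62% in either direction and 3.11% higher. The test of any difference among the 3 groups called Ir75a and Ir75b, against 4.49%. A count of 0 or 2 among 43 is near these backgrounds and is not a result about receptor genes as a group.

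With the term for body tissue the calls were 0, 2 and 3 of 43 for 7 days against group, 1 day against group and 7 days against 1 day, where Ir75a joined Ir75b and Gr59f. The backgrounds of that fit were 1.10%, 5.62% and 6.90%. The median log2 fold change of the 43 was -0.01 after 7 days against group, beside 0.01 for all genes, and -0.07 after 1 day, beside 0.03 for all genes. It was 0.06 for 7 days against 1 day, beside 0.04.

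Counting genes whose libraries did not overlap between 2 conditions gave 13 of 43 (30.2%) for 7 days against group, 12 (27.9%) for 1 day against group and 11 (25.6%) for 7 days against 1 day. Over all genes tested these shares were 15.4%, 24.7% and 21.6%. Of the 13, 7 were higher and 6 lower after 7 days of isolation. Of the 12, 3 were higher and 9 lower after 1 day.

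**Figure D2:**
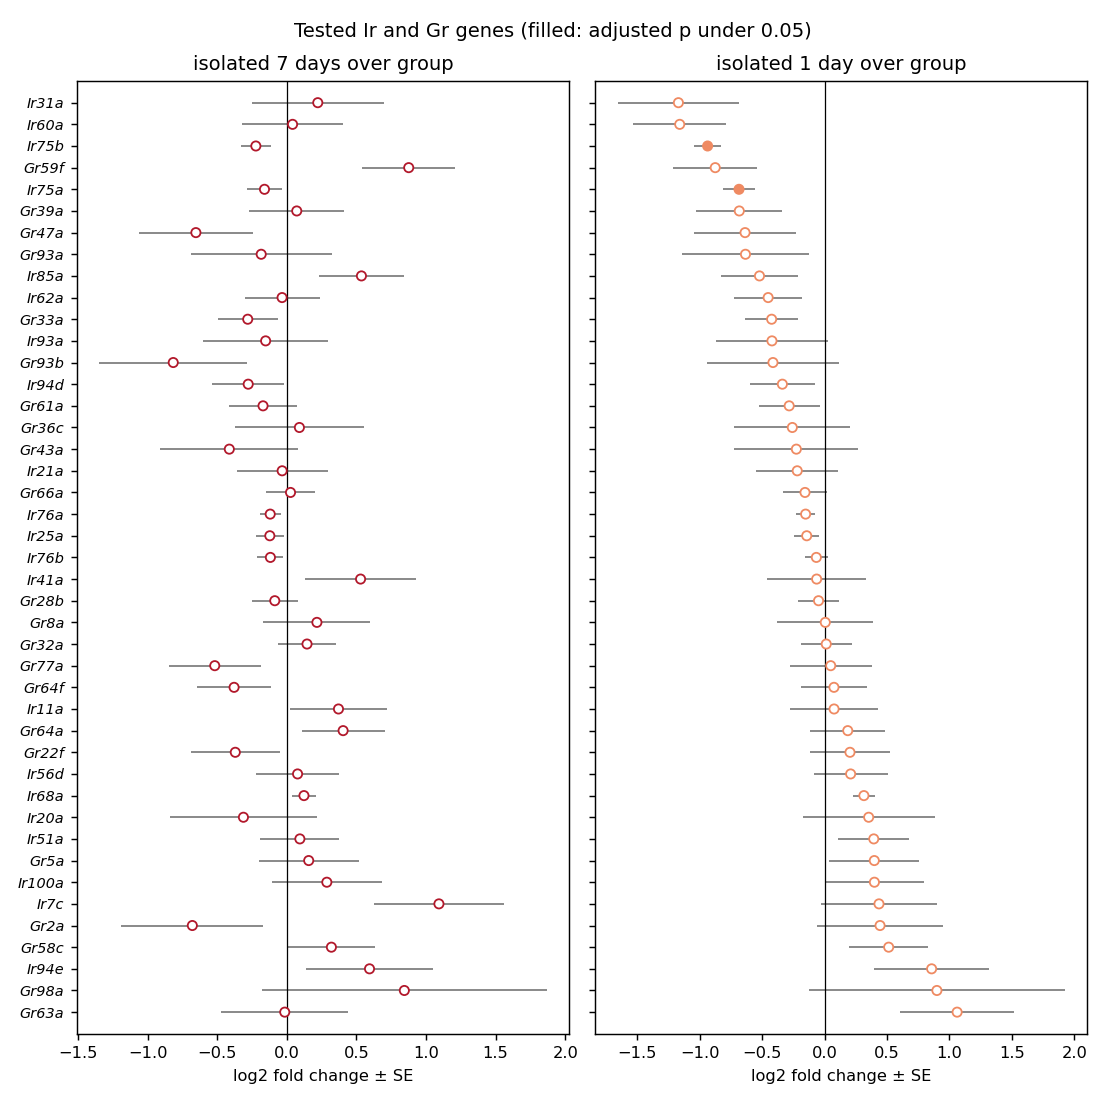
Log2 fold change with its SE for the 43 tested receptor genes, after 7 days of isolation over group (left) and after 1 day over group (right), in the order of the 1 day values. Filled points, Ir75b and Ir75a after 1 day, passed an adjusted p under 0.05 and all open points did not.

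Among the Ir genes listed as olfactory receptors of the antenna, Ir75a and Ir75b were lower after 1 day of isolation and nearer the group after 7 days. Ir75b and Ir75a are neighbours on 3L (BDGP6, minus strand, 17818073 to 17820193 and 17815570 to 17817921), 151 bases apart. In the antenna, Ir75a is tuned to acetic acid and Ir75b to slightly longer short-chain acids, each in its own coeloconic neurons. Whether the reads here came from those neurons was not tested. Ir8a, the co-receptor that both need there, had 1 to 11 counts per library.

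Ir75b had 12.1, 14.1 and 13.3 CPM after 7 days of isolation and 7.58, 9.31 and 7.17 CPM after 1 day, against 15.1, 15.3 and 15.7 CPM in the group. All 3 libraries of 1 day lay below every library of the other conditions, and the 3 libraries of 7 days lay between them and the group with no overlap. The log2 fold change was -0.94 (SE 0.109, adjusted p = 0.00552) for 1 day over group, a level 0.522 times that of the group. It was 0.71 (SE 0.109, adjusted p = 0.0154) for 7 days over 1 day. Between 7 days and group it was -0.22 (SE 0.108, adjusted p = 0.880) and was not called.

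Ir75a had 21.8, 23.2 and 19.7 CPM after 7 days of isolation and 12.2, 15.5 and 17.3 CPM after 1 day, against 23.9, 24.5 and 23.8 CPM in the group. The order of the groups was that of Ir75b, again with no overlap, but the libraries of 1 day were more scattered (SD 2.57 CPM, against 0.375 CPM in the group). The log2 fold change was -0.68 (SE 0.125, adjusted p = 0.0298) for 1 day over group. For 7 days over 1 day it was 0.52 (SE 0.125), with an adjusted p of 0.0658 without and 0.0210 with the body tissue term. For 7 days over group it was -0.16 (SE 0.124, adjusted p = 0.880).

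Both genes kept their direction among the libraries with and without body tissue. For 1 day over group, Ir75b had a log2 fold change of -0.84 (adjusted p = 0.131) in the 5 libraries with body tissue and Ir75a one of -0.80 (adjusted p = 0.161). In the 4 libraries without it the values were -1.08 and -0.45, with no p given, since a single pair of group libraries sets the spread there. The call of Ir75b at 1 day over group held without any single library, at log2 -1.05 to -0.81 and an adjusted p of at most 0.0378. That of Ir75a held only without isolated for 1 day replicate 3 and was lost without each of the other 8 libraries in turn, with a log2 fold change of -0.75 to -0.48 and an adjusted p of up to 0.180. Without isolated for 1 day replicate 1, the library with the high yolk protein genes and the lowest Ir75a, Ir75a had a log2 fold change of -0.48 (adjusted p = 0.0566). The call of Ir75b for 7 days over 1 day was lost in 5 of the 9 fits that left out 1 library (log2 0.58 to 0.84, adjusted p of up to 0.127). These were the fits without isolated for 7 days replicates 2 and 3, isolated for 1 day replicate 1 and group replicates 1 and 2.

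Markers of other tissues moved in the same comparison. After 1 day over group, 2 of 6 flight and leg muscle markers were called higher, Act88F (log2 1.06, adjusted p = 0.00477) and Mlp84B (log2 0.59, adjusted p = 0.00327). The list summed to 242 to 266 CPM after 7 days, 337 to 385 CPM after 1 day and 236 to 251 CPM in the group. The sum of 337 CPM was that of isolated for 1 day replicate 3, a library without body tissue by its gut and male tract markers. Of 8 eye markers, trpl was called lower (log2 -0.69, adjusted p = 0.00426). The eye sums given above lay below the group after 1 day and after 7 days, and those of 1 day and 7 days overlapped. The part of these tissues in the Ir75a and Ir75b results was not tested.

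Because genes of such a tandem cluster resemble each other, reads could be shared between them, depending on counting settings that are not given.

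**Figure D3:**
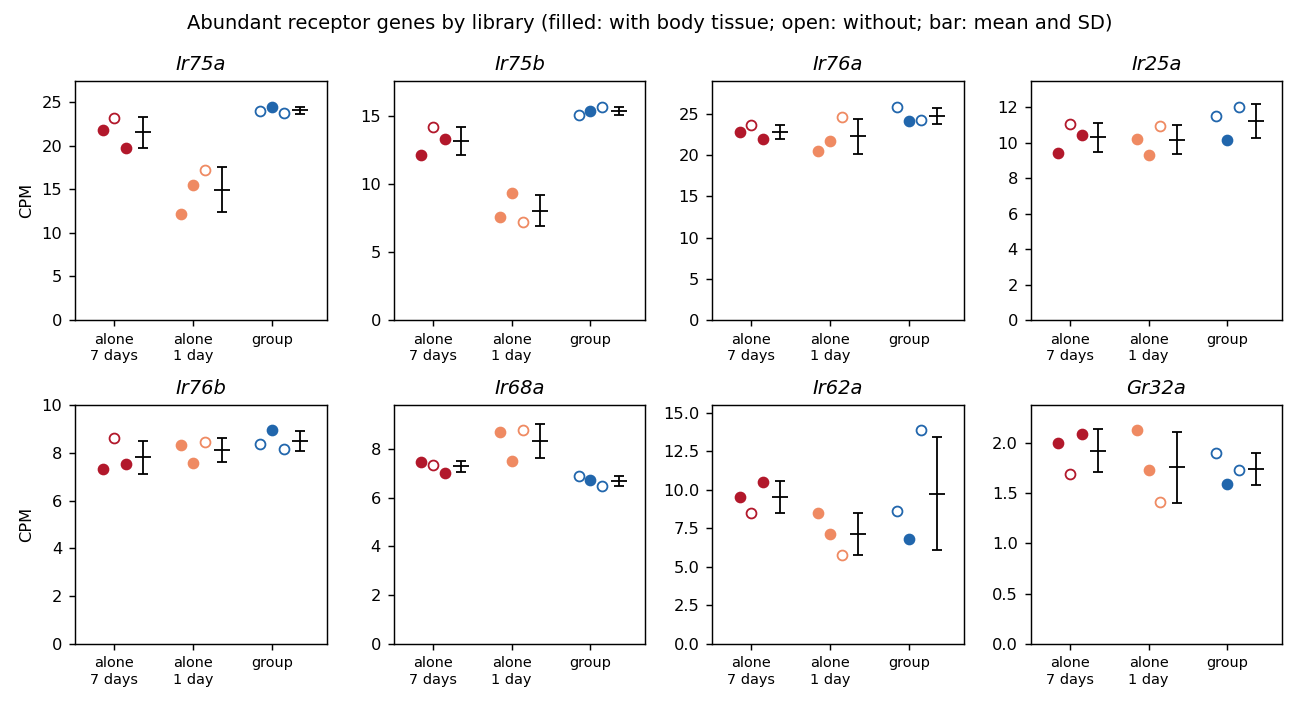
CPM of 8 abundant receptor genes by library, with the mean and SD of 3 libraries beside each group and filled points for libraries with body tissue. The 3 libraries of 1 day of isolation lie lowest for Ir75a and Ir75b, at 12.2 to 17.3 and 7.17 to 9.31 CPM, while Ir25a, Ir76b and Gr32a overlap between groups.

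The third gene of the cluster, Ir75c, 299 bases beyond Ir75b and tuned to related acids, had counts of 0, 0 and 1 after 7 days, 3, 0 and 1 after 1 day and 0, 4 and 0 in the group. At that depth no difference was detectable. Ir76a, a receptor of coeloconic neurons that respond to phenylethylamine and similar amines, was close to Ir75a per kilobase in the isolated 7 days libraries (10.8 and 10.9 CPM per kilobase) and in the group (11.7 and 12.1), and above it after 1 day (10.6 and 7.55). Ir76a had 22.8, 23.7 and 21.9 CPM after 7 days and 20.5, 21.7 and 24.6 CPM after 1 day, against 25.9, 24.2 and 24.2 CPM in the group. The values after 7 days lay just below the group and those after 1 day overlapped it, with log2 fold changes of -0.12 (adjusted p = 0.880) and -0.15 (adjusted p = 0.350). An exon of CG14102 on the other strand overlaps 297 bases of Ir76a.

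The remaining antennal Ir genes were low. Ir41a, which responds to polyamines, had 0.606 to 0.927 CPM after 7 days and 0.255 to 0.649 CPM after 1 day, against 0.442 to 0.600 CPM in the group. Ir31a, tuned to a keto acid, had 0.281 to 0.457 CPM after 7 days and 0.0751 to 0.216 CPM after 1 day, against 0.245 to 0.402 CPM in the group. Its values of 1 day lay below both other groups without overlap, but the log2 fold changes of -1.17 (SE 0.488) for 1 day over group and 1.39 (SE 0.490) for 7 days over 1 day had adjusted p-values of 0.258 and 0.191 and were not called.

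Ir64a, an acid receptor of the sacculus, Ir84a, which detects food-derived aromatic odours and acts in male courtship, and Ir92a, an ammonia receptor, had at most 7, 2 and 5 counts in any library. For Ir75d, tuned to pyrrolidine, at most 1 count was listed, but 2098 of its 2312 exon bases are shared with COX6AL2 on the same strand. Counters can drop such reads, so its value does not measure absence. In sum the 10 antennal Ir genes reached 56.3 to 61.9 CPM after 7 days of isolation, 41.1 to 49.5 CPM after 1 day and 64.7 to 65.8 CPM in the group. Of the 5 tested, 2 were called lower after 1 day than in the group, beside 2.71% of all genes tested. For 7 days over 1 day, 1 was called higher, beside 3.11%.

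In whole heads, fewer expressing cells per sample and less RNA per cell cannot be told apart. Which cells the Ir75a and Ir75b reads came from was not tested. Ir75a had 487 to 1307 counts per library, while Ir8a, the co-receptor that it needs in the antenna, had 1 to 11. Other genes of the antenna are given beside these results. Of a list of 28 other chemosensory genes, 25 were tested. After 1 day against the group, 3 of them were called lower, beside 2.71% of all genes tested. These were a10, an antennal chemosensory protein (log2 -2.37, SE 0.274, adjusted p = 0.00547), lush, a pheromone-binding protein of the antenna (log2 -0.97, SE 0.157, adjusted p = 0.0183), and Snmp2, a membrane protein of sensory support cells (log2 -0.27, SE 0.0480, adjusted p = 0.0282). Both a10 (log2 1.23, adjusted p = 0.0470) and Snmp2 (log2 0.22, adjusted p = 0.0465) were higher after 7 days than after 1 day. At 7 days against group 0 of the 25 were called.

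Orco, the co-receptor of the odorant receptors, was not called in any comparison. It had 97, 127 and 63 counts after 7 days and 74, 77 and 114 counts after 1 day, against 129, 92 and 125 counts in the group, with overlapping CPM. Obp83a, an antennal odorant-binding protein, had 15, 17 and 20 counts after 7 days and 13, 21 and 24 counts after 1 day, against 103, 14 and 146 counts in the group. Os-C, also from the antenna, had 0, 2 and 0 counts after 7 days and 0, 2 and 0 counts after 1 day, against 60, 0 and 77 counts in the group. Obp83a and Os-C were high in group replicates 1 and 3 only. Obp28a, another antennal odorant-binding protein, had 1.09, 2.58 and 1.19 CPM after 7 days and 1.88, 1.83 and 3.55 CPM after 1 day, against 0.791, 1.07 and 1.81 CPM in the group. Its libraries of 1 day lay above those of the group, opposite to a10 and lush, with a log2 fold change of 0.98 (SE 0.489, adjusted p = 0.356) that was not called.

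Over 9 antennal genes picked after their values were seen (Orco, lush, a10, a5, Obp28a, Obp59a, Obp83a, Obp83b and Os-C; 6 tested), the summed level was 6.97 to 10.2 CPM after 7 days, 6.98 to 10.3 CPM after 1 day and 9.32 to 20.0 CPM in the group. Of the 9, Obp59a was at 0 in all isolated libraries and in group replicate 2. In the comparison of 1 day with the group, 2 of the 6 were called lower, beside 2.71% of all genes tested. These were lush and a10, already counted above. Because the genes were picked by their values, this count is not support. The part of antennal tissue in the Ir75a and Ir75b results was not tested.

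**Figure D4:**
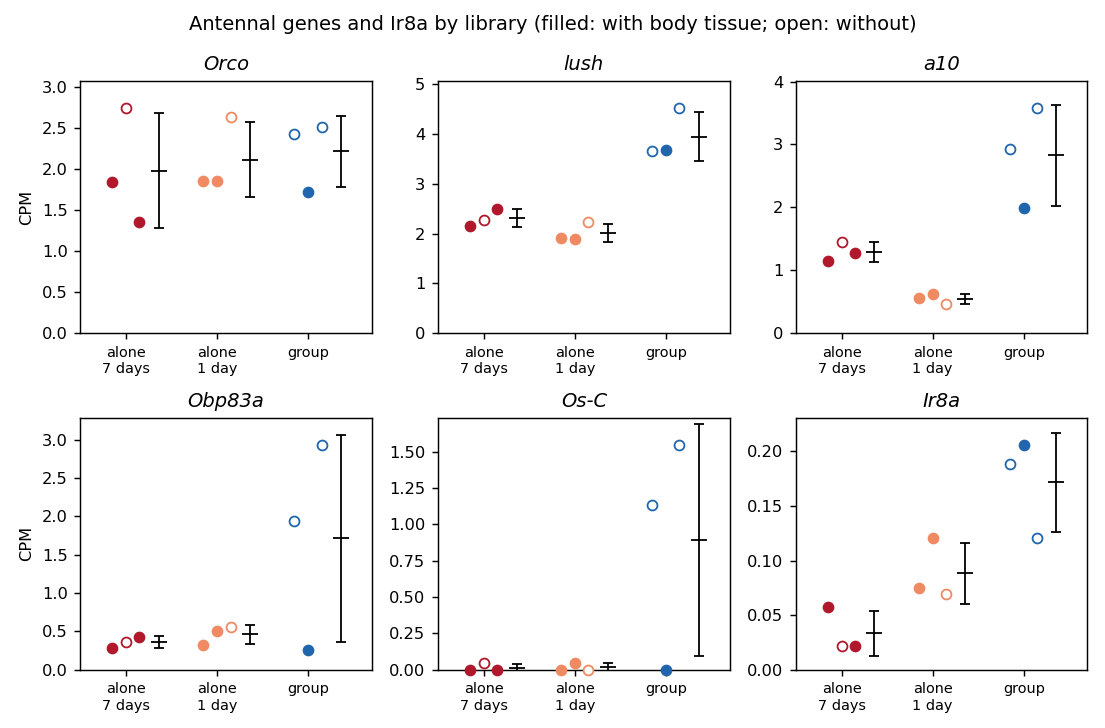
CPM by library of 5 antennal genes and of Ir8a, with mean and SD beside each group and filled points for libraries with body tissue. Levels of a10 are lowest after 1 day of isolation, Orco overlaps between groups, and Obp83a and Os-C are high in 2 of 3 group libraries.

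Among the co-receptors, Ir25a and Ir76b did not pass the threshold in any comparison. Ir25a, the most widely used co-receptor, had 9.44, 11.1 and 10.4 CPM after 7 days and 10.2, 9.33 and 11.0 CPM after 1 day, against 11.5, 10.2 and 12.0 CPM in the group. Ir76b, a co-receptor for amines and for taste, had 7.33, 8.61 and 7.52 CPM after 7 days and 8.31, 7.55 and 8.47 CPM after 1 day, against 8.36, 8.94 and 8.16 CPM in the group. The groups overlapped for both genes, and the log2 fold changes against the group lay between -0.14 and -0.07, with an SE of 0.0938 to 0.101. Ir93a, which acts with Ir25a in temperature and humidity sensing, was at 0.175 to 0.442 CPM with overlapping groups.

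Ir8a, the co-receptor that acid-tuned subunits such as Ir75a and Ir75b need, was too low for the filter. It had 3, 1 and 1 counts after 7 days and 3, 5 and 3 counts after 1 day, against 10, 11 and 6 counts in the group. Every isolated library had fewer counts than every group library, but library totals differed. In CPM the gap nearly closed, with 0.1203 in isolated for 1 day replicate 2 and 0.1206 in group replicate 3. Without the filter its log2 fold change was -2.28 (SE 0.535, adjusted p = 0.322) for 7 days over group and -0.94 (SE 0.501, adjusted p = 0.494) for 1 day over group, and neither was called. Per kilobase Ir8a averaged 0.0348 CPM, far below Ir75a, its partner in the antenna.

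Of the temperature and humidity genes, Ir68a, needed for sensing moist air, was the only one above 5 CPM. It had 7.48, 7.36 and 7.02 CPM after 7 days and 8.71, 7.50 and 8.77 CPM after 1 day, against 6.87, 6.73 and 6.47 CPM in the group. All 6 isolated libraries lay above the 3 of the group, and those of 1 day above those of 7 days. For 1 day over group the log2 fold change was 0.32 (SE 0.0884, adjusted p = 0.105), which was not called here, while DESeq2 gave 0.33 and an adjusted p of 0.00561. Ir21a, needed for cool sensing, was at 0.990 to 1.08 CPM after 7 days and 0.529 to 1.28 CPM after 1 day, against 0.925 to 1.19 CPM in the group, and Ir40a, needed for sensing dry air, had 4 to 14 counts per library. An antisense RNA gene overlaps 2087 exon bases of Ir21a, so their reads could not be told apart if counting ignored strand.

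Ir62a, a taste subunit involved in calcium avoidance, varied within groups. It had 9.56, 8.48 and 10.5 CPM after 7 days and 8.48, 7.12 and 5.78 CPM after 1 day, against 8.59, 6.80 and 13.9 CPM in the group. The group libraries overlapped both other conditions, and no comparison was called. Ir62a lies inside Iml1 on the same strand, a gene at 125 to 157 CPM. Ir85a, chosen after its values were seen, had 0.990, 1.28 and 1.77 CPM after 7 days and 0.751, 0.673 and 0.510 CPM after 1 day, against 0.904, 0.750 and 1.13 CPM in the group. Its log2 fold change of 1.06 (SE 0.307) for 7 days over 1 day had an adjusted p of 0.115 and was called by DESeq2 (log2 1.04, adjusted p = 0.0491). DESeq2 called 11.6% of all genes in that comparison. Ir85a lies inside Pif1A, on the other strand, a gene at 1.28 to 6.83 CPM.

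Ir60a, also chosen after its values were seen, had 0.281 to 0.345 CPM after 7 days and 0.100 to 0.192 CPM after 1 day, against 0.300 to 0.322 CPM in the group. Its libraries of 1 day lay below all others, with a log2 fold change of -1.16 (SE 0.373, adjusted p = 0.147) for 1 day over group, not called.

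Of the sweet taste receptors, 5 of 9 were tested and 0 were called in any comparison. Gr5a, a trehalose receptor, had 0.628 to 0.649 CPM after 7 days and 0.487 to 0.938 CPM after 1 day, against 0.412 to 0.804 CPM in the group. Gr61a, a glucose receptor, Gr64f, the broadly needed sugar co-receptor, Gr64a and Gr43a, the fructose sensor of pharynx and brain, had between 0.0952 and 1.09 CPM over all libraries. The 9 genes summed to 2.25 to 2.64 CPM after 7 days, 2.25 to 2.90 CPM after 1 day and 2.41 to 2.88 CPM in the group. Gr64b, Gr64c and Gr64d were listed at 0 throughout and Gr64e at 0 except for 1 count. Their exons coincide in the annotation, with 2858 bases shared between Gr64b and Gr64c and 2882 between Gr64d and Gr64e, so reads from them may have been discarded as ambiguous and the zeros do not measure absence. The same holds for Gr10a, whose 2819 shared bases lie in Or10a.

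Among bitter receptors, 7 of 11 were tested and 0 were called in any comparison. Gr32a, Gr33a and Gr66a, present in nearly all bitter neurons and, for Gr32a and Gr33a, needed for male responses to pheromones, were the highest Gr genes per kilobase. Gr33a had 1.03, 1.56 and 1.51 CPM after 7 days and 1.28, 1.18 and 1.25 CPM after 1 day, against 1.79, 1.52 and 1.67 CPM in the group. Its libraries of 1 day lay below those of the group and those of 7 days overlapped them, with log2 fold changes of -0.42 (SE 0.214, adjusted p = 0.367) and -0.28 (SE 0.214, adjusted p = 0.880).

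Gr66a had 1.47, 1.75 and 1.38 CPM after 7 days and 1.45, 1.30 and 1.30 CPM after 1 day, against 1.54, 1.46 and 1.51 CPM in the group. Gr32a had 2.00, 1.69 and 2.09 CPM after 7 days and 2.13, 1.73 and 1.42 CPM after 1 day, against 1.90, 1.59 and 1.73 CPM in the group. Both overlapped between 7 days and the group. After 1 day the libraries of Gr66a lay below those of the group, with a log2 fold change of -0.16 (SE 0.175, adjusted p = 0.734), and those of Gr32a overlapped them. Gr39a, linked to courtship, was at 0.241 to 0.371 CPM after 1 day, below the 0.419 to 0.714 CPM after 7 days and the 0.422 to 0.637 CPM of the group, with a log2 fold change of -0.68 (SE 0.345, adjusted p = 0.366) for 1 day over group. It lies inside Mondo, on the other strand, which was itself lower (log2 -0.36, adjusted p = 0.0437).

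Gr8a, a canavanine receptor, Gr47a, needed for strychnine responses, and Gr93a, needed for caffeine avoidance, were at 0.0862 to 0.496 CPM. Gr22e, Gr59c, Gr89a and Gr98b, not tested, had at most 13 counts per library. The summed level of the 11 was 6.28 to 6.69 CPM after 7 days, 5.29 to 6.03 CPM after 1 day and 6.58 to 6.95 CPM in the group, so the 1 day libraries were the lowest for this sum.

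The carbon dioxide receptor is formed by Gr21a and Gr63a together. Gr63a had 0.267, 0.238 and 0.108 CPM after 7 days and 0.425, 0.505 and 0.371 CPM after 1 day, against 0.188, 0.150 and 0.281 CPM in the group. The 3 libraries of 1 day were the highest, opposite to Ir75a and Ir75b, with a log2 fold change of 1.06 (SE 0.457, adjusted p = 0.274) over group and -1.08 (SE 0.457, adjusted p = 0.284) for 7 days over 1 day, and neither was called. Gr21a had 1 to 3 counts per library.

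Among the other Gr genes, Gr59f was higher after 7 days of isolation than after 1 day. It lies on 2R (BDGP6, plus strand, 23542510 to 23543885). It had 41, 28 and 38 counts (0.781, 0.606 and 0.819 CPM) after 7 days and 8, 10 and 9 counts (0.200, 0.241 and 0.209 CPM) after 1 day, against 14, 22 and 26 counts (0.264, 0.412 and 0.523 CPM) in the group. The 3 groups did not overlap, with 7 days highest and 1 day lowest. The log2 fold change for 7 days over 1 day was 1.75 (SE 0.342, adjusted p = 0.0348), a ratio of 3.37.

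Against the group, Gr59f had log2 fold changes of 0.88 (SE 0.332, adjusted p = 0.678) after 7 days and -0.88 (SE 0.336, adjusted p = 0.218) after 1 day, which were not called. The call for 7 days over 1 day held only without group replicate 1 and was lost without each of the other 8 libraries in turn, with a log2 fold change of 1.62 to 1.84 and an adjusted p of up to 0.209. With the body tissue term it was 1.74 (adjusted p = 0.0145), and in the 5 libraries with body tissue 1.80 (adjusted p = 0.0859). The size of the difference varied little between these fits, but they share libraries and are not independent of each other.

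Gr28b, which includes forms active in warmth and light sensing, was the most abundant Gr gene in CPM, with 2.30 to 2.43 CPM after 7 days, 2.09 to 2.76 CPM after 1 day and 2.23 to 2.84 CPM in the group, and the groups overlapped. Gr22f had 0.267 to 0.368 CPM after 7 days and 0.361 to 0.650 CPM after 1 day, against 0.414 to 0.431 CPM in the group, with no call. Ir51a had 1.10 to 1.34 CPM after 7 days and 1.27 to 1.70 CPM after 1 day, against 0.881 to 1.62 CPM in the group, with no call.

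Gr98a, chosen after its values were seen, followed body tissue and not housing. It lies on 3R (BDGP6, plus strand, 27487927 to 27489968). It had 17, 2 and 34 counts after 7 days and 18, 24 and 5 counts after 1 day, against 6, 20 and 6 counts in the group. The 5 libraries with body tissue averaged 0.492 ± 0.165 CPM (SD, n = 5), against 0.0982 ± 0.0368 CPM in the 4 without (SD, n = 4), and the sets did not overlap. In the fit with a term for body tissue the log2 fold change of that term was 2.24 (SE 0.433, adjusted p = 0.00367). Gr98a was the only 1 of 43 receptor genes called for it, against 23.0% of all genes tested. Its counts reached 10, the minimum count of the filter, only in the libraries with body tissue. Gr98a was thus tested only through the libraries where it is high, so this call describes the gene and is not support. The division into libraries with and without body tissue rests on gut and male tract genes and was made after earlier results of these data were known.

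**Figure D5:**
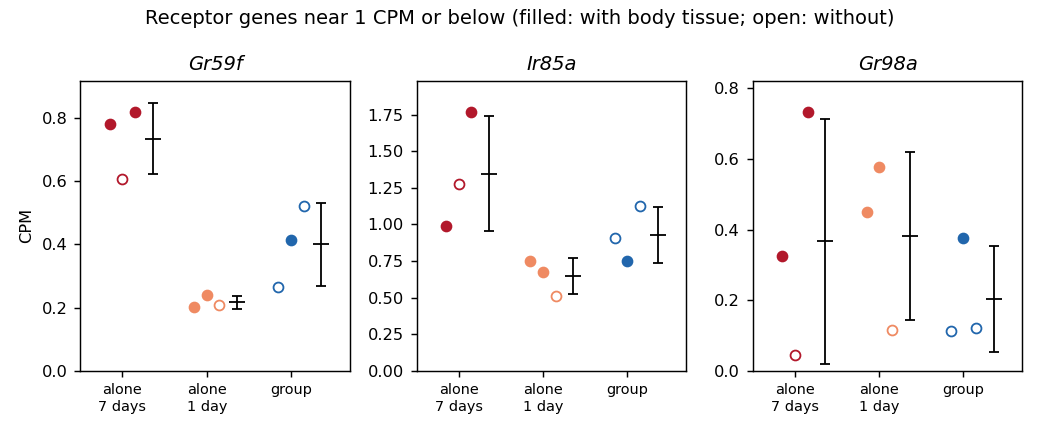
CPM by library of Gr59f, Ir85a and Gr98a, with the mean and SD of 3 libraries beside each group and filled points for libraries with body tissue. Gr59f separates the 3 groups, at 0.606 to 0.819 CPM after 7 days, 0.200 to 0.241 CPM after 1 day and 0.264 to 0.523 CPM in the group, while all 5 filled points of Gr98a lie above its 4 open points.

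The 12 tested receptor genes not described so far (Gr2a, Gr36c, Gr58c, Gr77a, Gr93b, Ir7c, Ir11a, Ir20a, Ir56d, Ir94d, Ir94e and Ir100a) were at 0.0862 to 0.885 CPM over all libraries. Their log2 fold changes were between -0.82 and 1.09 after 7 days over group and between -0.41 and 0.86 after 1 day over group. None was called in any comparison, and 0 of the 12 had an unadjusted p under 0.05. In the annotation, 1186 exon bases of Gr2a are shared with futsch on the same strand.

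The 71 receptor genes with at least 1 count that the filter removed were also fitted without it. None was called: 0 of 71 passed in each of the 4 tests (edgeR quasi-likelihood test, Benjamini-Hochberg), with the lowest adjusted p at 0.163. An unadjusted p under 0.05 was found for 2 of them after 7 days over group, 0 after 1 day over group and 2 for 7 days over 1 day.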

How the data were processed

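The deposited values were whole-number counts of reads per gene and library. Per the labels, the library kit was TruSeq stranded mRNA LT. Per the submitters' processing notes, the authors used bcl2fastq 2.20, STAR 2.4.2a and featureCounts; the sources used here do not give the featureCounts version, its strand and multi-mapping settings or the genome build. Symbols came from the BDGP6 annotation by gene identifier (17287 of 17490 genes, and 17144 with the same span, including all 126 receptor genes). Exons of 24 receptor genes overlap another gene, 10 on the same strand and 17 on the other.

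All 9 libraries were fitted together with edgeR 4.0.16 in R 4.3.3 (filterByExpr, TMM normalization, quasi-likelihood test, group as the only term). A gene was called at a two-sided Benjamini-Hochberg adjusted p under 0.05 over all 12963 genes tested. The SE is the size of the log2 fold change over the root of its F statistic. CPM were computed from the deposited counts with TMM-scaled library totals. Body tissue was taken as present where gut and male tract markers summed to over 50 CPM. Equally numbered libraries did not deviate together (r from -0.23 to 0.04 over 9986 genes), so the numbers do not pair samples. Alternatives were RLE and upper quartile normalization, other filters, DESeq2 1.42.0, limma-voom (limma 3.58.1), a replicate block, a body tissue term, libraries with or without body tissue only, the compared groups only, and each library left out; a body tissue term without the filter was added after seeing the data. The main fit was also run on simulated counts, with changes in the isolated 7 days libraries only and no body tissue differences. That run does not bear on the calls of 1 day over group.

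The receptor genes and the gene lists were chosen with earlier results of these data known. Named genes are those called in either fit, the role lists, and the 8 highest per kilobase in each family; others are marked. Plots used matplotlib 3.10.9 (Python 3.11.15). Intervals of a count of 0 cover counting error only.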

Additional observations from a re-analysis of the deposited data

Results flagged for a closer look

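For 2 receptor genes the test of 7 days against 1 day of isolation passed the threshold, but neither call held without every single library. Ir75b had a log2 difference of 0.71 (SE 0.109, adjusted p = 0.0154, edgeR quasi-likelihood test with Benjamini-Hochberg adjustment), with all 3 libraries of 7 days above all 3 of 1 day. Gr59f had one of 1.75 (SE 0.342, adjusted p = 0.0348), also with 3 of 3 libraries of 7 days above those of 1 day. The call of Ir75b held in 4 of 9 fits that left out 1 library each (adjusted p of up to 0.127) and that of Gr59f in 1 of 9 (up to 0.209).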

How the results depend on the processing

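No called difference of a named receptor gene reversed direction under the alternatives tried. Counts of called receptor genes are given as 7 days over group, 1 day over group, 7 days over 1 day, and any difference. They were 0, 2, 2 and 2. RLE normalization gave 0, 2, 2 and 1, upper quartile 0, 1, 2 and 1, and no filter on low counts 0, 1, 1 and 1. Fitting the groups compared alone gave 0, 1 and 0. In these alternatives 0.199% to 4.45% of all genes were called. DESeq2 gave 0, 3, 3 and 3, with 2.55%, 12.1%, 11.6% and 14.4% of all genes called. The replicate block, though no pairing by number was seen, gave 0, 1, 0 and 1 (0%, 1.25%, 0.972% and 0.903% of all genes). Under it Ir75b for 1 day over group stayed called (adjusted p = 0.0339). Only libraries with body tissue gave 0, 0, 0 and 0 of 50, with 0.0371%, 0.646%, 2.38% and 1.60% of all genes called. Only those without gave 1, 5, 5 and 5 of 48, with 7.43%, 50.4%, 42.4% and 51.0% of all genes called, where 1 pair of libraries sets the spread. Leaving out each library in turn gave 0 to 0, 1 to 2, 0 to 2 and 0 to 2, with 0.0227% to 8.85% of all genes called. Gr59f for 7 days over 1 day was also lost with limma-voom (adjusted p = 0.120), and DESeq2 gave it no adjusted p. Of 1859 values of single genes under alternatives, 1809 stayed on their side of the threshold, 35 lost a call and 15 gained one. These values cover 94 results, nearly all of them not called at first, so most of the 1809 only stayed uncalled. The 35 losses all fell on the few results that were called at first, so the 1809 do not measure how stable the calls were. The cause of these changes was not tested. Genes under 1 CPM rest on few counts per library.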
